A study of Mus musculus with 4 samples.

Results

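Expression of 9 genes of the glucocorticoid and FoxO stress response was followed in CD4+ thymocytes with and without the microRNA miR-142. The genes were Nr3c1, Tsc22d3, Ddit4, Fkbp5, Per1, Klf9, Sgk1, Txnip and Pik3ip1, that is, the glucocorticoid receptor gene and 8 genes induced by glucocorticoid or by FoxO factors. They were taken by name, with 1 probe set each, out of 19938 genes that the array measured with a probe set of a single gene. All 9 were among the 12591 genes above background, a mean of more than log2 5.87 over the arrays, a level that 95% of genes for olfactory and vomeronasal receptors did not exceed. Wild type (WT, miR-142+/+) and miR-142-/- mice of strain C57BL/6n were 8 weeks old, and thymi were pooled within a genotype. Per the labels, 3 females and 2 males were pooled for WT, and 1 female and 3 males for miR-142-/-. How the miR-142 allele was made is not given in the sources used here. From each pool, CD4+ CD8- cells were sorted by FACS, after bead depletion of CD8+ cells, into CD69+ Qa2- cells, which are newly selected, and CD69- Qa2+ cells, which are mature and close to leaving the thymus. RNA of each of the 4 populations was hybridised to 1 Affymetrix Gene 1.0 ST array, so that every group had 1 array. Where a pair of values is given below for a genotype or a genotype difference, that of Qa2- cells comes first.

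Glucocorticoids are steroid hormones that thymocytes meet both from the adrenal gland and within the thymus. The hormone releases its receptor, encoded by Nr3c1, from a chaperone complex, and the receptor then binds palindromic DNA elements and switches genes on or off. Immature thymocytes are killed by high levels of the hormone. FoxO factors are held out of the nucleus when PI3K and Akt are active, and enter it when growth factor or antigen receptor signals fade. In T cells they promote quiescence, survival and homing. Several genes, Ddit4, Klf9, Txnip and Sgk1 among them, respond to more than 1 such input.

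Mir142, the gene for which the mutant is labelled -/-, gives rise to 2 mature microRNAs, printed here from RefSeq (GRCm38.p6, chromosome 11, plus strand) with the seed, bases 2 to 8, in capitals, because they are the microRNAs of the mutated gene.
mmu-miR-142a-5p: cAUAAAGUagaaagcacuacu
mmu-miR-142a-3p: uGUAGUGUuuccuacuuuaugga
On the arrays, Mir142 stood at log2 10.11 and 9.41 in WT, and the mutant's 5.29 and 4.88 lay below background.

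The arrays correlated at 0.982 to 0.991 with each other over all probe sets. Cd4 lay between 12.36 and 12.64 on the 4 arrays, and Cd8a between 7.25 and 7.53. Cd8b1 read 9.97 and 9.98 in WT but 9.24 and 8.75 in miR-142-/- cells, above background throughout and lower in the mutant. Cd69 was lower in the Qa2+ sort, at 10.55 against 11.32 in WT and at 10.55 against 11.51 in miR-142-/-. For the Qa2- sample of the mutant, a description field mentions the Qa2+ gate. It was treated as Qa2-, as titled and as its sorting entry states. Sex-linked transcripts went against the labelled mixtures of both sexes. Xist read 12.67 and 12.14 in WT against 5.06 and 4.83 in miR-142-/- cells, and the Y-linked gene Eif2s3y read 4.29 and 4.39 against 10.55 and 10.58. Genotype therefore cannot be told apart from the sex composition of the pools in any difference below. With bulk RNA, fewer cells of a type and less RNA per cell cannot be told apart either.

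Most of the 9 genes were higher in miR-142-/- than in WT cells, at both stages. All 9 were above WT by some amount in Qa2- cells, where 49.7% of all genes were, and 8 of 9 in Qa2+ cells, where 50.2% were. At least 1.5-fold, 6 of 9 were higher in Qa2- cells, against 3.11% of all genes, and 7 of 9 in Qa2+ cells, against 4.56%. At least 2-fold, Klf9, Ddit4, Fkbp5 and Per1 were higher in Qa2- cells (1.04% of all genes), and these 4 and Pik3ip1 in Qa2+ cells (1.43%). The same 6 genes passed 1.5-fold at both stages (2.14% of all genes), and Txnip was the seventh in Qa2+ cells. None of the 9 was at least 1.5-fold lower, against 3.74% and 4.88% of all genes. The median difference of the 9 was 0.91 on the log2 scale for Qa2- and 1.22 for Qa2+ cells, compared with 0.0 for all genes at both stages. The genes were chosen with these data known, so the counts describe them and are not a test. With 1 array per group, no genotype difference has a replicate check or a p-value. For scale, the central 95% of all genes lay between -0.73 and 0.66 in Qa2- and between -0.85 and 0.79 in Qa2+ cells. Both populations of a genotype came from the same mice.

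**Figure D1:**
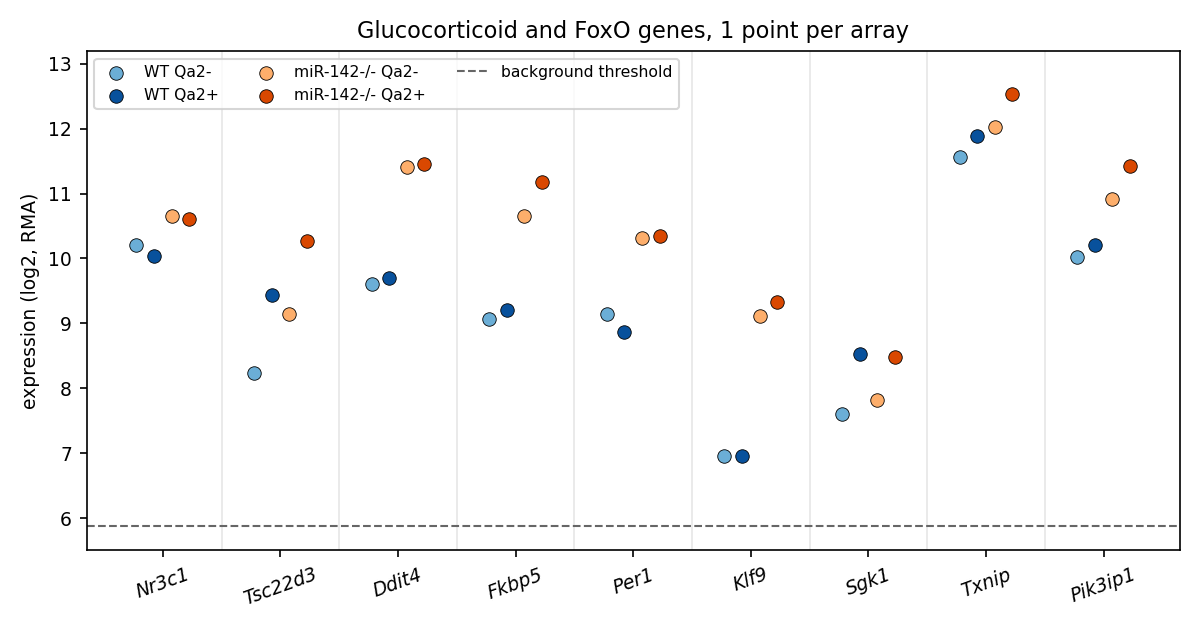
Expression of the 9 genes (log2, y axis) on the 4 arrays, 1 point per array, with WT in blue, miR-142-/- in orange, Qa2- light and Qa2+ dark, and the background threshold of 5.87 dashed. Both miR-142-/- points lie above both WT points for Nr3c1, Ddit4, Fkbp5, Per1, Klf9, Txnip and Pik3ip1, whereas Tsc22d3 and Sgk1 are ordered mainly by stage. How many of all genes have such an order was not counted.

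The receptor gene differed between genotypes by less than 1.5-fold. Nr3c1 read log2 10.21 (Qa2-) and 10.03 (Qa2+) in WT, compared with 10.66 (Qa2-) and 10.61 (Qa2+) in the mutant. Both miR-142-/- arrays were above both WT arrays, an order that was not counted over all genes. The genotypes differed by 1.37-fold in Qa2- and 1.49-fold in Qa2+ cells. These differences of 0.46 and 0.58 were larger than those of 94.9% and 95.3% of all genes. Between the stages Nr3c1 differed by -0.17 in WT and -0.05 in miR-142-/- cells.

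Klf9 had the largest genotype difference of the 9. It encodes a Krüppel-like zinc finger transcription factor that the glucocorticoid receptor induces in many tissues. It read 6.95 on both WT arrays, not far above background, and 9.12 and 9.33 in the mutant. It was thus 4.49-fold higher in Qa2- and 5.21-fold higher in Qa2+ cells, ranking 19 and 20 from the top among 12591 genes. Its RefSeq promoter window (GRCm38.p6, chr19:23140976-23141275, plus strand), shown because this gene differed most, held the FoxO site GTAAACA from base -100 and the cAMP response element core TGACGT from base -46, both in capitals.
Klf9: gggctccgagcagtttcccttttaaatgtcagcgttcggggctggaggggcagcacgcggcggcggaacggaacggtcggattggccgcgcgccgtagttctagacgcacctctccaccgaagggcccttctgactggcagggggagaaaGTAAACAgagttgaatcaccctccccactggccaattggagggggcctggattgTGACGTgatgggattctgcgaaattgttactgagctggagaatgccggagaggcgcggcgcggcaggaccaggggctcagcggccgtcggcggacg
No position matched the glucocorticoid response element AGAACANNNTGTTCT in this window.

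Ddit4 encodes REDD1, which restrains the growth kinase mTORC1 under stress and is induced by glucocorticoid, hypoxia and DNA damage. It stood at 9.61 and 9.70 in WT but at 11.41 and 11.46 without miR-142. The genotypes were far apart and the stages close together. The genotype difference was 3.47-fold in Qa2- and 3.39-fold in Qa2+ cells, ranks 29 and 44 of 12591. The stage difference was 0.08 in WT and 0.05 in miR-142-/-.

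Fkbp5 encodes FKBP51, a cochaperone that the receptor induces and that in turn lowers hormone binding by the receptor. It read 9.07 and 9.20 in WT, compared with 10.65 and 11.17 in the mutant. The difference was 3.00-fold in Qa2- and 3.92-fold in Qa2+ cells, ranks 46 and 32. Within miR-142-/- the Qa2+ cells were 0.51 above the Qa2- cells, and within WT 0.13.

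Per1, a circadian repressor gene that glucocorticoid also induces directly, read 9.15 and 8.87 in WT. Its levels without miR-142 were 10.32 and 10.34. It was 2.24-fold and 2.78-fold higher in miR-142-/-, ranks 96 and 71. RefSeq gives Per1 2 starts, and both windows are printed because each held a different element in capitals. The window at chr11:69098699-69098998 (GRCm38.p6, plus strand) held the E-box CACGTG from base -166, and the window at chr11:69099902-69100201 held TGACGT from base -132.
Per1, upstream start: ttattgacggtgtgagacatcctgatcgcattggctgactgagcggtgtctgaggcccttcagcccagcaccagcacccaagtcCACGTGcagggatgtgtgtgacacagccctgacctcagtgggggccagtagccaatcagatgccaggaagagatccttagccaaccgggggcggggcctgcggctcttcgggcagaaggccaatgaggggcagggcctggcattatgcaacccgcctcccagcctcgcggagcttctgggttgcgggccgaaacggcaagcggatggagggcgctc
Per1, downstream start: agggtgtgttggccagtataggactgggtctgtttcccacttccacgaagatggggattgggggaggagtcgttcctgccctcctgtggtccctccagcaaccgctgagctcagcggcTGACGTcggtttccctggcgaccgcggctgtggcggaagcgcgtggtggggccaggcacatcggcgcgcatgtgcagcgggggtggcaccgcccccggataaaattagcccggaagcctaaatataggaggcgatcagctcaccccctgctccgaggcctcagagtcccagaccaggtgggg
An E-box of these letters lay in 7.15% of all 32851 promoter windows and TGACGT in 7.51%.

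Tsc22d3 encodes GILZ, a leucine zipper protein that carries part of the anti-inflammatory action of glucocorticoid and is also a FoxO target. It stood at 8.23 and 9.43 in WT but at 9.14 and 10.27 without miR-142. Both factors of the design showed in it. By genotype it was 1.88-fold and 1.79-fold higher without miR-142. By stage it was higher in Qa2+ cells, 2.30-fold for WT and 2.19-fold for the mutant. WT Qa2+ cells were above miR-142-/- Qa2- cells by less than the steps of either factor. Tsc22d3 lies on the X chromosome, whose 342 genes above background had median genotype differences of -0.01 in Qa2- and 0.03 in Qa2+ cells. When genes of the X and Y chromosomes were left out, which was decided after the data were seen, the share of genes at least 1.5-fold higher was 3.11% in Qa2- and 4.52% in Qa2+ cells.

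Sgk1 had the smallest genotype difference of the 9 in both populations. It encodes a kinase related to Akt that steroid hormones induce within a short time and that can phosphorylate FoxO factors. It read 7.61 and 8.52 in WT, compared with 7.82 and 8.48 in the mutant. The genotypes differed by 0.21 in Qa2- and by -0.04 in Qa2+ cells, both well inside the central 95% of all genes. Of the windows searched, which cover every member except Nr3c1, the only one with a full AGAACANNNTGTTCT element was an Sgk1 window (GRCm38.p6, chr10:21993640-21993939, plus strand), and it is printed for that reason. The element starts at base -189 and an E-box at base -246, both in capitals.
Sgk1: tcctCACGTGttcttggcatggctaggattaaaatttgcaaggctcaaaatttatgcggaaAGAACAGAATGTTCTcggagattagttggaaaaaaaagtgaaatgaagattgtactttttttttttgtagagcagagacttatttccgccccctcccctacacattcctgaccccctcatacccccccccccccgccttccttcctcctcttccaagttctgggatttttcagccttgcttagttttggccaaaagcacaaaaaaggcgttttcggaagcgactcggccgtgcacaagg
Across the mouse promoter table, 3 of 32851 windows (0.00913%) held this full element, and the shorter AGAACA, on either strand, lay in 19.0% of them. These 6 letters form each arm of the full element, so every full element also counts among them.

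The FoxO-linked genes Txnip and Pik3ip1 were also higher in miR-142-/-. Txnip encodes an arrestin-like protein that binds thioredoxin and lowers glucose uptake. It stood at 11.57 and 11.88 in WT but at 12.03 and 12.54 without miR-142. It was 1.37-fold higher in Qa2- and 1.58-fold higher in Qa2+ cells. Pik3ip1, a membrane protein gene whose product inhibits PI3K, read 10.02 and 10.21 in WT. Mutant cells gave 10.92 and 11.43, which is 1.87-fold and 2.32-fold above WT. The arrays of the genotypes did not overlap for either gene, and the share of all genes for which this held was not counted. The Txnip window (GRCm38.p6, chr3:96557707-96558006, plus strand) is shown because it held the same FoxO site as that of Klf9, GTAAACA, in capitals from base -121.
Txnip: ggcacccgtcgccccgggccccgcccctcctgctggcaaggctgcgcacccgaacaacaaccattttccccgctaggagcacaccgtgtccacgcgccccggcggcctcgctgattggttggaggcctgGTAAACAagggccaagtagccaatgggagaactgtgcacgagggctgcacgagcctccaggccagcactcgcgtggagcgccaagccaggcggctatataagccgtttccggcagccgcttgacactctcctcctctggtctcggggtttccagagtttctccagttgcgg
GTAAACA or its reverse complement lay in 3.65% of all promoter windows. Among the 16 windows of the 8 genes for which a promoter is used here, 2 held it, those of Klf9 and Txnip. CACGTG lay in 3 of the 16 (Fkbp5, Per1 and Sgk1), TGACGT in 2 and AGAACA in 4, and windows of 1 gene are not independent. The windows of Ddit4 and Pik3ip1 held none of these motifs. A match to these letters describes the sequence and does not show that a factor binds there.

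**Figure D2:**
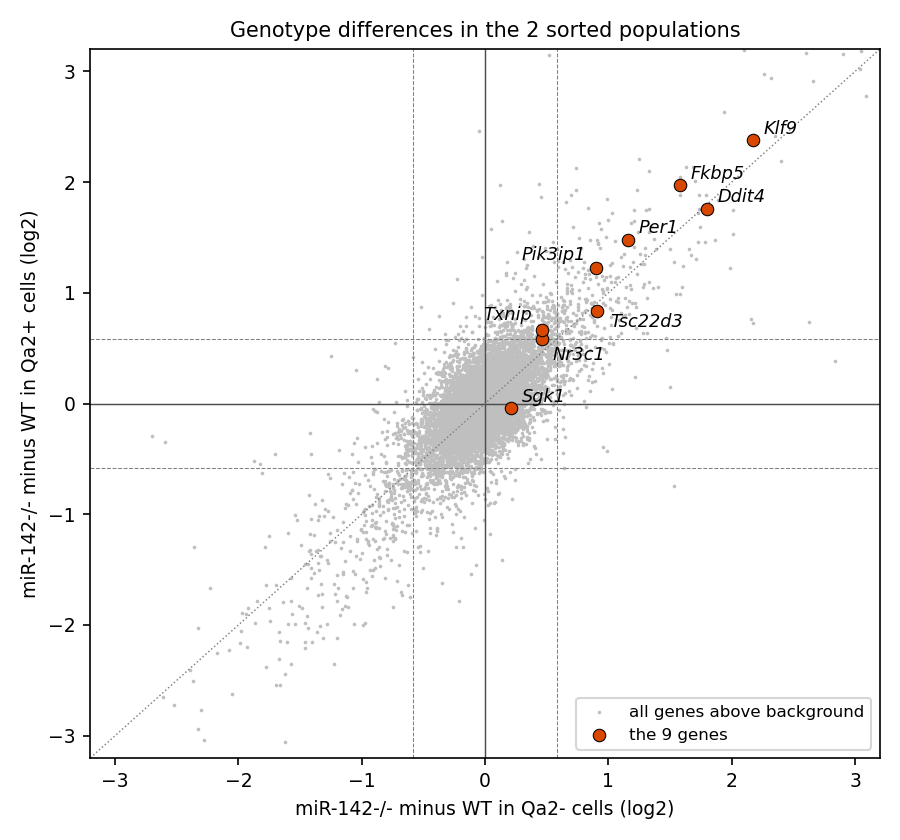
Difference between miR-142-/- and WT (log2) in Qa2- cells (x axis) and Qa2+ cells (y axis) for all 12591 genes above background (grey) and the 9 genes (orange), with dashed lines at 1.5-fold and a dotted line of equal difference. Klf9, Fkbp5, Ddit4, Per1, Pik3ip1 and Tsc22d3 lie beyond 1.5-fold on both axes and Sgk1 near the centre, and 9 genes fall outside the axes.

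The stage comparison set the genes in another order. It was tested with limma on the mean of the WT and miR-142-/- stage differences (2 pairs of sorted populations, genotype as a block, 1 residual degree of freedom), with Benjamini-Hochberg adjustment over 12591 genes. Tsc22d3, Sgk1 and Txnip rose from Qa2- to Qa2+ cells and none of the 9 fell, against 4.77% of all genes that rose and 8.35% that fell. At an unadjusted p under 0.05 (limma), 5 of the 9 were higher in Qa2+ cells and 0 lower, against 10.2% and 19.4% of all genes. Of all calls, 36.3% rose as deposited, but 59.9% with median centring and 56.1% with quantile normalization, and none of the 9 fell under any of these. Tsc22d3 rose by 1.17 ± 0.10 (log2, SE; limma adjusted p = 0.00076), the mean of 1.20 (WT) and 1.13 (mutant). Sgk1 rose by 0.78 ± 0.11 (limma adjusted p = 0.0044), the mean of 0.90 (WT) and 0.66 (mutant). Txnip rose by 0.41 ± 0.10 (limma adjusted p = 0.04), the mean of 0.31 (WT) and 0.51 (mutant). All 3 were higher in Qa2+ cells in both pairs. On 1 simulated data set this test called more unchanged genes than its threshold allows, so a call close to it, as for Txnip, is weak. Without the block, which is the pool from which both populations were sorted, none of them passed (adjusted p = 0.41, 0.32 and 0.61).

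Pik3ip1 and Fkbp5 were higher in Qa2+ cells of both genotypes without passing the test, by 0.35 ± 0.11 (limma adjusted p = 0.084) and 0.32 ± 0.12 (limma adjusted p = 0.12). With each array centred on its median, both passed, with adjusted p of 0.028 and 0.042. Klf9, Ddit4, Nr3c1 and Per1 had mean stage differences of 0.11, 0.07, -0.11 and -0.13 (limma adjusted p = 0.51, 0.69, 0.50 and 0.48). Of the 3 genes with the largest genotype differences, Klf9 and Ddit4 had stage differences of at most 0.22 in either genotype, and Fkbp5 had 0.13 in WT and 0.51 in miR-142-/-. The p-values rest mostly on the spread pooled over genes, since limma's prior had 6.94 degrees of freedom, and the pairs are pools rather than mice.

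**Figure D3:**
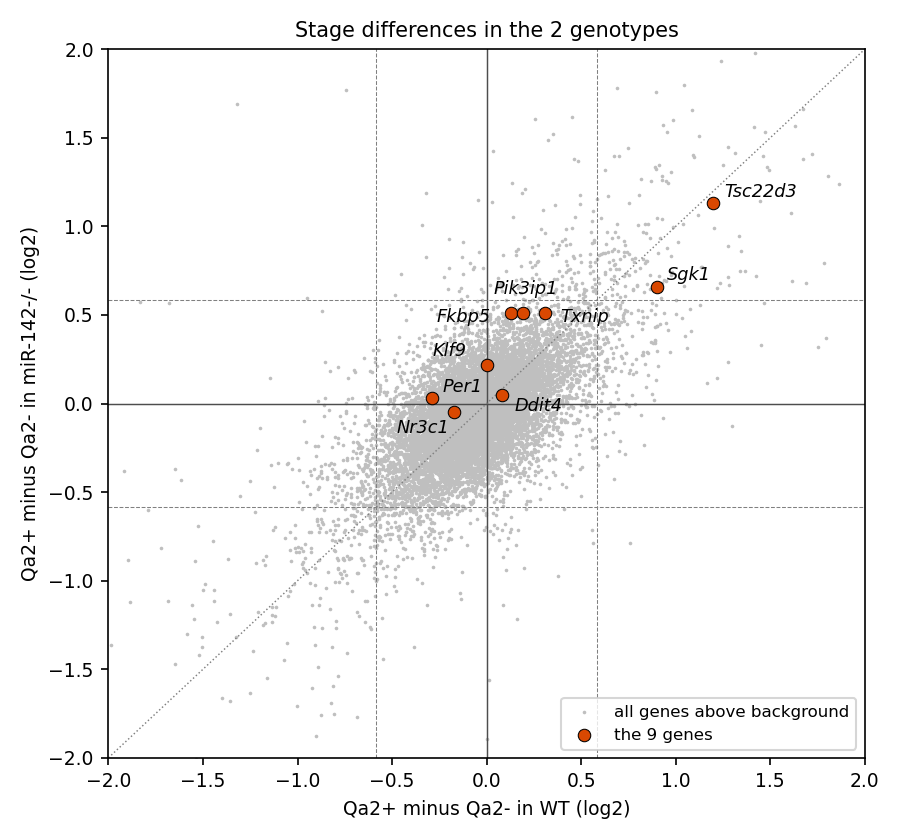
Difference between Qa2+ and Qa2- cells (log2) in WT (x axis) and miR-142-/- (y axis) for all genes above background (grey) and the 9 genes (orange), with dashed lines at 1.5-fold and a dotted line of equal difference. Tsc22d3 and Sgk1 lie beyond 1.5-fold on both axes, Fkbp5, Pik3ip1 and Txnip lie at 0.51 in miR-142-/-, and 29 genes fall outside the axes.

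The stage step was larger in miR-142-/- than in WT for Fkbp5 by 0.39, Pik3ip1 by 0.32, Per1 by 0.31, Klf9 by 0.22, Txnip by 0.20 and Nr3c1 by 0.12. It was smaller in miR-142-/- for Sgk1, Tsc22d3 and Ddit4, where the step in the mutant minus that in WT was -0.24, -0.07 and -0.03. The central 95% of all genes lay between -0.51 and 0.53 for this quantity, and all 9 genes were inside that range. The difference between the steps was not tested, because 4 arrays leave no degree of freedom for it.

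Chaperones and cofactors of the receptor were about as close between the genotypes as genes at large. Of 16 such genes above background, 0 were 1.5-fold higher at either stage, against 3.11% (Qa2-) and 4.56% (Qa2+) of all genes. The numbers that were lower were 0 (Qa2-) and 1 (Qa2+), against 3.74% and 4.88%. That gene was Hsd11b1, which encodes an enzyme that reactivates glucocorticoid and differed by -0.16 and -0.67. It was named after its values were seen. The receptor chaperone Hsp90aa1 differed by -0.28 and -0.16, and Fkbp4, the cochaperone that opposes Fkbp5, by -0.27 and -0.09. The coactivators Ep300, Ncoa1 and Ncoa3 were above WT by 0.27, 0.30 and 0.24 among Qa2- cells and 0.21, 0.20 and 0.16 among Qa2+ cells. The list medians were 0.08 and 0.13. None of the 16 passed the limma stage test, in which 4.77% of all genes rose and 8.35% fell. At an unadjusted p under 0.05 (limma), 1 was higher and 1 lower, against 10.2% and 19.4% of all genes. Nr3c2, the mineralocorticoid receptor gene, was below background.

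Other genes induced by glucocorticoid differed in both directions. Of 20 above background, 2 were higher and 2 lower by 1.5-fold or more among Qa2- cells, against 3.11% and 3.74% of all genes. Among Qa2+ cells 3 were higher and 1 lower, against 4.56% and 4.88%. The list medians were 0.02 and 0.21. Cxcr4, a chemokine receptor gene, was higher by 1.23 and 1.17, and Zfp36l2, an mRNA decay factor gene, by 0.98 and 1.15. Nfkbia, which encodes the NF-kB inhibitor IkBa, was higher by 0.51 and 0.73. Zbtb16, which encodes the transcription factor of innate-like T cells PLZF, differed by -0.68 and -1.73. Dusp1 and Per2, both classical early glucocorticoid targets, were not higher in the mutant, at -0.18 and -0.50 for Dusp1 and -0.08 and -0.18 for Per2. Between the stages 2 of the 20 rose and 4 fell (limma), against 4.77% and 8.35% of all genes. Cxcr4 rose by 1.09, and Errfi1, a feedback inhibitor of growth factor receptors, fell by 0.97. Bcl2l11, which encodes the pro-death protein Bim, fell by 0.57 and Dusp1 by 0.47.

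FoxO factors differed little by genotype. Foxo1, the main FoxO gene of T cells, read 10.94 and 11.43 in WT, compared with 10.97 and 11.37 in the mutant. Genotypes differed by 0.03 and -0.06, while Foxo1 rose with stage by 0.44 (limma adjusted p = 0.03). Foxo3 differed by 0.0 and -0.07 between genotypes, and the X-linked gene Foxo4 by 0.42 and 0.44. Of 21 FoxO and PI3K pathway genes, 1 was 1.5-fold higher among Qa2- cells and 0 among Qa2+ cells, against 3.11% and 4.56% of all genes. None was lower, against 3.74% and 4.88%, so the counts were near those shares. The 1 gene was Pik3r1, a regulatory subunit of PI3K, at 0.69 in Qa2- and 0.37 in Qa2+ cells. Akt1 differed by -0.24 in both populations. With stage, the catalytic subunit gene Pik3cd rose by 0.50 and Pik3cg fell by 0.58 (limma).

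Other FoxO targets had median genotype differences near 0. Of 29 above background, 1 was higher and 3 lower by 1.5-fold or more among Qa2- cells, against 3.11% and 3.74% of all genes. Among Qa2+ cells 2 were higher and 4 lower, against 4.56% and 4.88%. The list median was 0.05 at both stages. The death gene Bbc3, encoding Puma, was higher by 0.67 and 1.04, and Bnip3, a mitophagy gene, by 0.53 and 0.66. Klf2, a driver of thymic exit, differed by -0.48 and -0.87 and its target S1pr1 by -1.70 and -0.46. The regulatory T cell genes Ctla4 (-2.61 and -2.65) and Foxp3 (-1.19 and -1.66) were lower in the mutant at both stages. Other regulatory T cell markers did not share this, with Il2ra at 0.33 and 0.26, Ikzf2 at 0.08 and -0.06, Tnfrsf18 at 0.30 and -0.14 and Tnfrsf4 at 0.11 and -0.82. With stage, 6 of the 29 FoxO targets rose and 2 fell (limma), against 4.77% and 8.35% of all genes. S1pr1 rose by 2.33, Rag1 by 2.31, Foxp3 by 1.91 and Klf2 by 1.14.

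Partners of single members were mixed. Arrdc4, which encodes an arrestin related to Txnip and shares its glucose-sensing activator MondoA, was higher by 0.72 in Qa2- and 1.60 in Qa2+ cells. Mlxip, the MondoA gene, was higher by 0.56 and 0.34, and the thioredoxin gene Txn1 differed by -0.10 and -0.19. Of 11 genes around thioredoxin and MondoA, Arrdc4 was the 1 gene at least 1.5-fold apart in either population. Of 15 clock genes above background, 2 passed 1.5-fold upwards among Qa2- cells and 3 among Qa2+ cells, and none passed it downwards. Over all genes, 3.11% and 4.56% were 1.5-fold higher, and 3.74% and 4.88% lower. The medians of the clock genes were 0.18 and 0.40. Ciart, a clock repressor gene, was higher by 0.91 and 1.08 and Nr1d2, encoding REV-ERB beta, by 0.59 and 1.24. Per2 and Per3, the paralogs of Per1, stood at -0.08 and -0.18 (Per2) and at 0.15 and 0.35 (Per3). The time of day at which thymi were taken is not given in the sources used here.

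Of 18 genes of the integrated stress and hypoxia responses, which can also induce Ddit4, 1 was 1.5-fold higher at each stage. That compares with 3.11% (Qa2-) and 4.56% (Qa2+) of all genes. Lower by as much were 0 among Qa2- cells and 2 among Qa2+ cells, against 3.74% and 4.88%. Vegfa, a hypoxia-induced growth factor gene, was higher by 0.94 and 1.58. The stress transcription factor genes Atf4 (-0.05 and 0.26) and Ddit3 (0.19 and 0.48) stayed under 1.5-fold, and the list medians were 0.04 and -0.06. Among relatives of the members, Tsc22d1, a paralog of Tsc22d3, was higher by 0.59 and 0.49 in miR-142-/- and fell with stage by 1.18, opposite to Tsc22d3. Nedd4, a ubiquitin ligase gene of the family that SGK kinases regulate, was higher by 1.00 and 1.65 and fell with stage by 1.22. Nedd4l, of the same family, differed by only 0.01 and 0.31, and by -0.05 with stage. Ndrg1, listed with the SGK partners, differed by 0.25 and -0.34 and fell with stage by 0.94. Sgk3, a paralog of Sgk1, differed by 0.07 and 0.52. Immediate-early genes, which can respond to cell handling as well as to antigen receptor signals, had medians of -0.01 in Qa2- and -0.36 in Qa2+ cells. Of 15 above background, 0 were 1.5-fold higher at either stage, against 3.11% and 4.56% of all genes. Lower were 0 and 4 of them, against 3.74% and 4.88%.

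**Figure D4:**
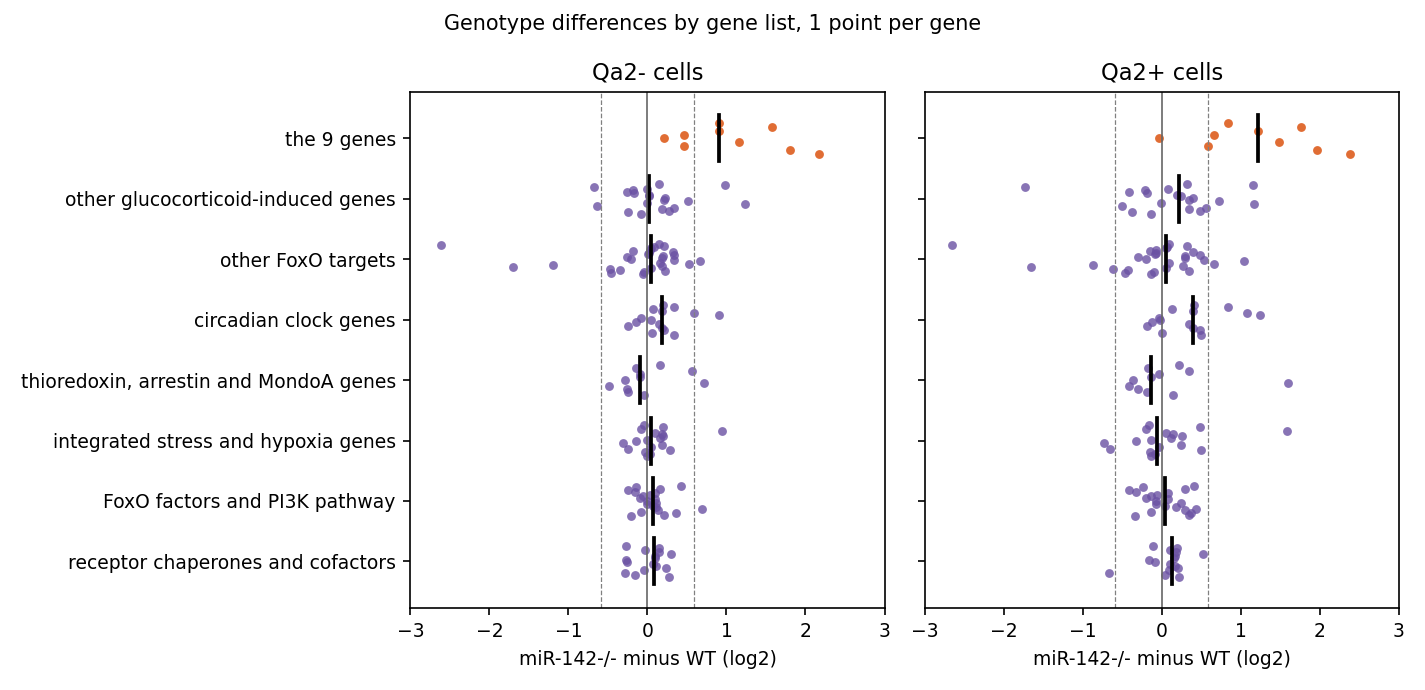
Difference between miR-142-/- and WT (log2, x axis) in Qa2- cells (left) and Qa2+ cells (right) for the 9 genes (orange) and 7 lists of related genes (purple), 1 point per gene above background, with black bars at the list medians and dashed lines at 1.5-fold. The median of the 9 genes is 0.91 and 1.22, and the medians of the other lists lie between -0.13 and 0.40.

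Genes with the most similar profile were found for the 4 members at least 2-fold apart in both populations, by the Euclidean distance of mean-centred log2 values over the 4 arrays. The nearest to Klf9 were Map2, a microtubule protein gene, and Nrn1, a neuritin gene, at distances of 0.21 and 0.23, and the homeobox gene Hoxa6 at 0.39. The nearest to Ddit4 were the kinase gene Cdc42bpa (0.14), the histone gene H2bc4 (0.17) and Skap2, an adaptor protein gene (0.18). Fkbp5 was nearest to Skap2 (0.20), Cdc42bpa (0.24) and Tmie (0.24), and Per1 to the adhesion receptor gene Adgra3 (0.12), the kinase anchor gene Akap7 (0.14) and Evi5 (0.17). Cdc42bpa was below background on both WT arrays (4.95 and 5.16). Of distances from these 4 to others of the 9 genes, the smallest was that of Ddit4 and Fkbp5, at 0.33. A distance over 4 arrays is a description with no test.

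Markers of other cells moved with genotype in part. Of 10 genes that mark effector and innate-like T cells, 9 were above background. All 9 were lower in the mutant at both stages, as were 4456 of all 12591 genes. Their median differences were -1.26 and -0.81. Gzmb, Klrd1 and S100a4 read below the background level in both mutant populations, so they passed the filter through their WT values. The summed linear signal of all 10 (2 to the power of each log2 value, added up) was 3894 and 3223 for WT but 1458 and 1400 for the mutant. Klrb1c was below background as a mean over the arrays, but read 7.42 in WT Qa2- cells. It read 5.31 in WT Qa2+ cells and 4.41 in both mutant populations. Of 6 CD8 T cell markers, 3 (Qa2-) and 2 (Qa2+) were lower by 1.5-fold or more, against 3.74% and 4.88% of all genes. Ccl5 differed by -1.59 and -1.17, Cd8b1 by -0.73 and -1.23 and Nkg7 by -3.47 and -0.45. Eomes was higher by 0.67 and 0.33, while Cd8a differed by -0.20 and -0.22 and Runx3 by 0.04 and 0.01. The summed signal of the 6 was 3762 and 2872 for WT but 1990 and 1975 for the mutant. The part of these cells in the differences of the 9 genes was not tested. The 6 regulatory T cell markers had medians of 0.09 and -0.48 and a summed signal of 8298 and 9167 for WT against 8889 and 7011 for the mutant. Double-positive thymocyte markers had medians of 0.10 and 0.04 by genotype and a summed signal, over 9 genes of which 8 were above background, of 3792 and 3397 for WT against 3494 and 3444 for the mutant. With stage, 5 of 8 of them rose and 1 fell (limma), against 4.77% and 8.35% of all genes, with Rag1 rising by 2.31. Of the 6 regulatory T cell markers, 3 rose with stage and 1 fell (limma). Their stage differences were 1.91 for Foxp3, 0.70 for Il2ra, 0.58 for Ctla4 and -0.60 for Ikzf2. The part of double-positive thymocytes and regulatory T cells in the stage differences of Tsc22d3, Sgk1 and Txnip was not tested. The B cell genes Cd79a, Ms4a1 and Pax5, the myeloid genes Csf1r, Itgax, Adgre1 and Flt3, the erythroid genes Alas2 and Klf1 and the stromal genes Krt5, Foxn1 and Pdgfra were below background. Of the markers above background in these lists, the B cell gene Cd79b differed by -0.48 and -0.45, the stromal genes Krt8 by 0.54 and 0.93 and Epcam by -0.60 and -0.26, and the myeloid genes Cd68 by -0.11 and -0.63 and Lyz2 by 0.11 and -0.81. The others, Igll1, Itgam, Siglech, Psmb11 and Col1a1, stayed under 1.5-fold in both populations. Lyz2 rose with stage by 1.15.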

How the data were processed

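The authors deposited normalized log2 values for each probe set of 4 arrays. Per the submitters' processing notes, RMA and Partek were used, and no settings or versions are known here. RMA makes array distributions alike, which hides a shift shared by all genes, and it shrinks differences at low signal. All else was computed from this table. Of 35557 probe sets, 21789 had 1 listed gene, 1621 several and 12147 none, and 21698 matched a RefSeq gene (GRCm38.p6) by Entrez ID. Each gene took its probe set with the highest mean. Levels were not compared between genes.

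Genotype differences (1 array per group) have no test, and folds of 1.5 and 2 were counted. Stage differences were tested with limma 3.58.1 (R 4.3.3) on all genes above background, with genotype as a block, a two-sided adjusted threshold of 0.05. Tested on 1 simulated data set, it recovered the changed genes but also called more unchanged genes than the threshold allows. Alternatives were median centring, quantile normalization, the mean of a gene's probe sets, no block and no background filter. The members and gene lists were chosen with earlier results of these data known. Named genes are the 9 members, close partners of members and the nearest profiles. Each list adds up to 4 genes with the largest genotype difference shared by both populations, and up to 4 called by limma. Outside this rule fall Atf4, Ddit3, Cd69, Hsd11b1, Tnfrsf18, Tnfrsf4, Cd8a, Runx3 and the list genes named as below background. Promoter windows (250 bases before to 50 after a RefSeq start, GRCm38.p6) were searched on both strands, with capitals for the full glucocorticoid element, the FoxO site, the E-box and the cAMP response element core. A base is counted from the start, with negative numbers before it. Some genes of the lists are not reported here.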

Additional observations from a re-analysis of the deposited data

Results flagged for a closer look

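Per1 differed between the stages by -0.29 in WT and 0.03 in miR-142-/- cells, that is, in opposite directions in the genotypes and 0.31 apart. The difference between these values was not tested, and both lie inside the central 95% of all genes.

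The genotype difference of Sgk1 was 0.21 among Qa2- cells and -0.04 among Qa2+ cells, opposite in sign and -0.24 apart. This difference was not tested either. No group had enough arrays to look for an outlying sample.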

How the results depend on the processing

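With median centring and quantile normalization, the genotype differences of the 9 genes kept their side of 1.5-fold and, where past it, their direction. Member counts of 6 in Qa2- and 7 in Qa2+ cells were unchanged under both settings. The mean of probe sets gave the 9 genes the same log2 differences as deposited, so it is no separate check of them. For stage, 3 members rose as deposited, 5 with median centring, where Fkbp5 and Pik3ip1 were added, and 0 with no replicate block. Over all genes, 600 rose as deposited, 1076 with median centring and 977 with quantile normalization, so the share of stage calls that rose was 36.3%, 59.9% and 56.1%. Without a background filter 1593 genes fell, against 1051. In that setting, 75 of the 1194 olfactory and vomeronasal receptor genes that set the background level also passed (limma adjusted p under 0.05). With no replicate block limma called 0 genes that rose and 0 that fell, with 1544 genes, 1 of them a member, at an unadjusted p under 0.05. Median centring shifted the median stage difference by 0.10 in WT and 0.07 in miR-142-/-. No replicate could be left out, since each group had 1 array, and the number of arrays limits all precision.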
